A study of Mus musculus with 20 samples.

Results

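The MYC, MAX and MXD network was followed in the RNA of 9 murine T lineage acute lymphoblastic leukemias (T-ALLs). The network was taken as 10 genes, chosen by their symbols: *Myc*, *Mycn*, *Mycl*, *Max*, *Mxd1*, *Mxd3*, *Mxd4*, *Mxi1*, *Mnt* and *Mga*. All 10 were found among the 39017 genes of the deposited table, and 8 of them reached a mean of 1 FPKM, the level required for testing (FPKM are expected counts divided by the exon length in kb and by the library total in M). *Mycn* and *Mycl* did not reach it. The leukemias arose in C57Bl/6 x 129Sv/Jae F1 mice that had received the retrovirus MOL4070LTR as newborns, an insertional mutagen that activates or disrupts genes near its integration sites. These leukemias are called insertional mutagenesis (IM)-induced T-ALLs. Each leukemia is the disease of 1 donor mouse, and its cells were transplanted into irradiated adult wild-type recipients of the same cross, whose bone marrow gave the RNA.

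Each leukemia had 2 libraries, of which one has VEH and the other DEX in its column name. The labels and the methods of the study explain neither word and give no agent, dose or time for either, so the libraries are called VEH and DEX libraries here as the columns name them. With 1 library of each kind per leukemia there was no replicate within a leukemia, and the leukemia was the unit of replication. The leukemias were divided by their mean level, over 8 genes, of a list of NOTCH1 targets and receptors (*Notch1*, *Notch3*, *Heyl*, *Hes1*, *Nrarp*, *Dtx1*, *Il2ra*, *Ptcra*; mean of log2(FPKM + 1) over both libraries). The list was at 0.62 in 5C, 0.28 in 8633 and 0.28 in JW14, and between 4.14 (JW81) and 5.17 (20M) in 20M, 2M, 73A, 73M, 78A and JW81. These are called NOTCH-silent and NOTCH-active leukemias here. Because that division was made from measured values of the same libraries, and because the network was chosen with its changes known, all differences between the 3 and the 6 leukemias are given as descriptions, without a test.

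MYC proteins are basic helix-loop-helix leucine zipper factors that bind DNA as partners of MAX, mostly at the sequence CACGTG (the E-box), and raise transcription of genes for ribosome production, metabolism and growth. MXD proteins (MXD1, MXI1, MXD3 and MXD4), MNT and MGA compete for the same partner and the same sites and repress transcription, MXD proteins and MNT through SIN3 corepressors. In T-ALL, *Myc* is a well-known direct target of NOTCH1, and in lymphoid cells MXD proteins are commonly associated with exit from the cell cycle. MLX is a second MAX-like partner, shared by MXD4, MXD1, MNT and the glucose-sensing MLXIP (MondoA), whose best-known target is *Txnip*.

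*Myc* and *Mxd4* moved in opposite directions in the 6 NOTCH-active leukemias: *Myc* was lower and *Mxd4* higher in every DEX library of that group. In the 3 NOTCH-silent leukemias *Myc* was slightly higher in each DEX library and *Mxd4* slightly lower, the latter with a sign that depended on the scaling in 5C and 8633. *Mnt* was lower in the DEX library of 6 of 6 NOTCH-active leukemias, as were 15.4% of the genes tested. The changes of *Max*, *Mxd1*, *Mxd3*, *Mxi1* and *Mga* overlapped between the groups.

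The promoters of 9 of the 10 members, all but *Myc*, were found in RefSeq (GRCm38.p6), as the 250 bases before each transcription start. Searched for the E-box CACGTG, which reads the same on both strands, 2 of the 9 genes held it: *Mxd4*, 219 bases before its start (chr5:34187711-34187960, minus strand), and *Mnt*, 123 bases before its start (chr11:74830674-74830923, plus strand). Both promoters are shown with the E-box in capitals, 5′ to 3′ on the strand of the gene.
Mxd4: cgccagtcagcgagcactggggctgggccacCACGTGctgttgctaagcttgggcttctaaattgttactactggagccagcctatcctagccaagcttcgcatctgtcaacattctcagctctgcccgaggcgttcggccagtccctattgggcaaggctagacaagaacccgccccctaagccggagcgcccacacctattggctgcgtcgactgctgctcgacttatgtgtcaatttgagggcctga
Mnt: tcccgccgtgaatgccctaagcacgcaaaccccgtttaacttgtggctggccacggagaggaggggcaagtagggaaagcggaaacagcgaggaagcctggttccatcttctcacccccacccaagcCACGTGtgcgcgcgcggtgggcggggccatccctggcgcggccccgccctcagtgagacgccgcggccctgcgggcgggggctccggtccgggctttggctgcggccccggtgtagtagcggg
The E-box stood in the same window of 6.86% of the 27025 genes with a promoter entry and of 10.1% of the 8208 tested genes with one. It stood in 7 of the 23 genes (30.4%) with a promoter entry among the MYC targets described further on. A match is a string of letters in this window and gives no binding, which was not measured here.

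*Myc* (ENSMUSG00000022346, chr15:61985391-61990374, plus strand, GRCm38), the MYC gene of most dividing cells, was the highest of the 10 genes, with a mean of 51.9 FPKM over the 9 leukemias (SD 31.5). In the NOTCH-silent leukemias it went from 40.4 FPKM in the VEH library to 47.0 in the DEX library of 5C, from 110.7 to 122.6 in 8633 and from 84.6 to 106.4 in JW14. In the NOTCH-active leukemias it lay between 42.5 and 61.5 FPKM in VEH libraries (median 50.4) and between 16.04 and 25.9 in DEX libraries (median 19.6). The VEH libraries of the 2 groups overlapped, with 5C below all 6 NOTCH-active leukemias. The DEX libraries did not overlap, and the lowest NOTCH-silent DEX library (5C) held more *Myc* than the highest NOTCH-active one (73M).

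Within each NOTCH-active leukemia the DEX library held 32.2% (73A), 35.0% (78A), 35.2% (2M), 38.1% (JW81), 40.5% (20M) and 60.1% (73M) of the *Myc* FPKM of the VEH library. In the NOTCH-silent leukemias it held 111% (8633), 116.4% (5C) and 126% (JW14). Lower values in all 6 were found for 15.4% of the genes tested. All 6 changes lay below all 3, by a mean of 1.53 on the log2(FPKM + 1) scale: −1.30 ± 0.31 (SD, n = 6) against 0.23 ± 0.091 (SD, n = 3). JW81, with the lowest NOTCH1 target level of the 6, was at −1.35. Of the 11339 genes tested, 0.0529% had a lower mean change over the 6 leukemias than *Myc*. A change lower in all 6 and higher in all 3 was seen in 68 genes (0.6% of those tested), and a change in the opposite directions in the 2 groups of either kind in 107 (0.944%). On counts scaled with TMM factors the 6 were again all lower, from −1.53 to −0.61, and the 3 all higher, from 0.21 to 0.28. The change without each leukemia in turn kept a difference of 1.48 to 1.65 between the groups.

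**Figure D1:**
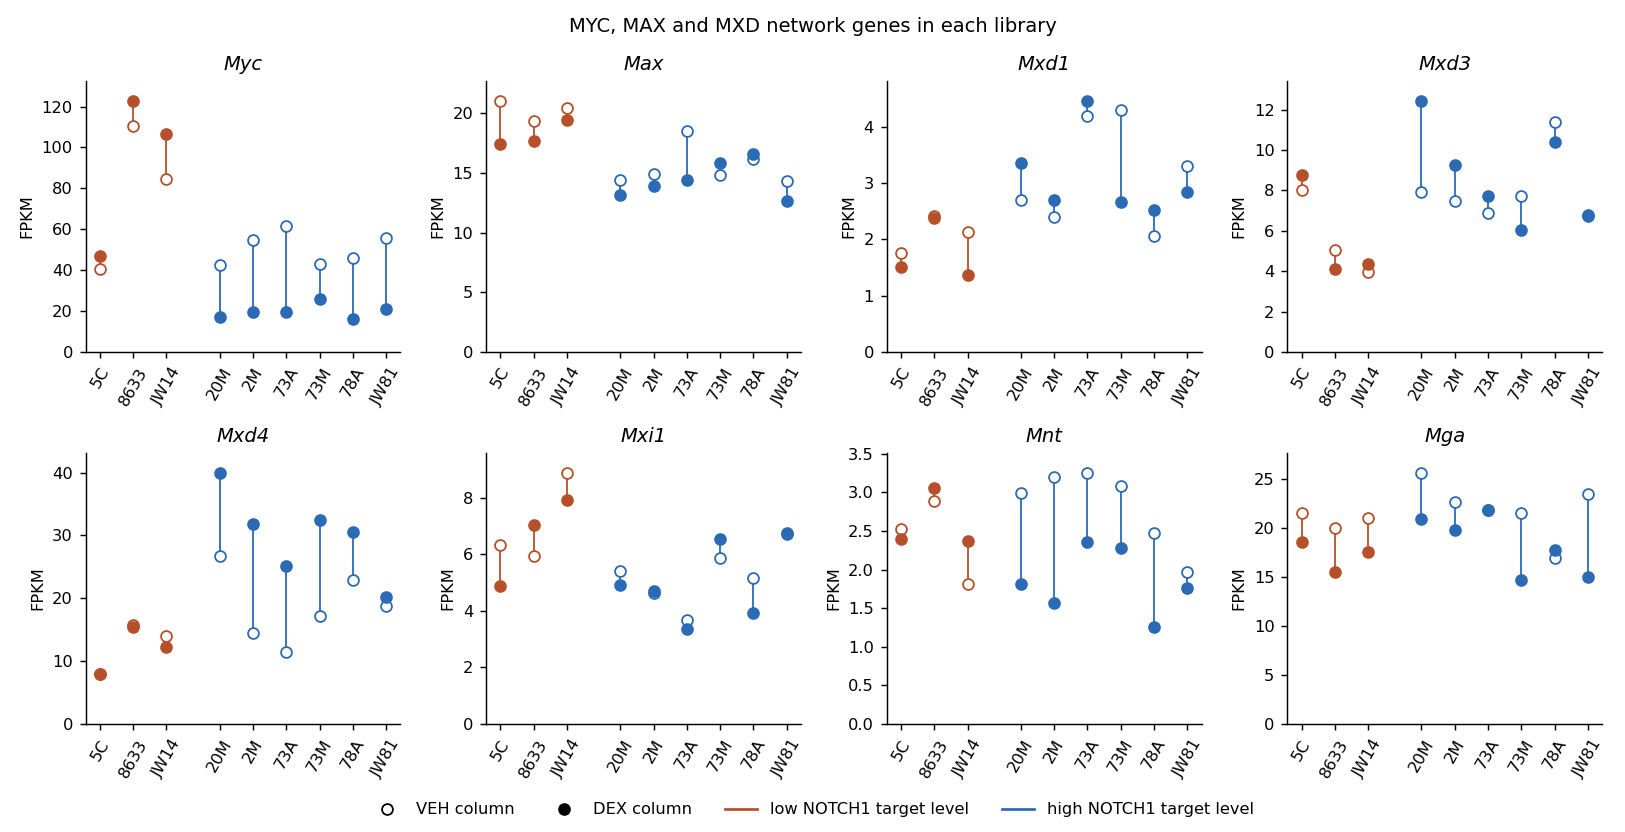
Expression (FPKM, linear axis from 0) of the 8 network genes that were tested, in both libraries of 9 leukemias. Open circles are VEH libraries, filled circles DEX libraries, a line joins the 2 libraries of a leukemia, and the 3 leukemias at the left of each panel (orange) are the NOTCH-silent ones. The DEX circles of *Myc* lie at 16.04 to 25.9 FPKM in the 6 NOTCH-active leukemias and at 47.0 to 122.6 in the 3 others.

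*Mxd4* (ENSMUSG00000037235, chr5:34173883-34187720, minus strand), a repressor that binds MAX or MLX, had a mean of 20.3 FPKM, close to that of *Mga* (19.8) and above the other antagonists. It went from 7.998 to 7.88 FPKM in 5C, from 15.8 to 15.5 in 8633 and from 14.1 to 12.3 in JW14. In the NOTCH-active leukemias it lay between 11.5 and 26.8 FPKM in VEH libraries (median 18.0) and between 20.2 and 39.9 in DEX libraries (median 31.2). The lowest NOTCH-active DEX library (JW81) was above the highest NOTCH-silent one (8633), whereas the VEH libraries of the 2 groups overlapped.

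The *Mxd4* change was above zero in all 6 NOTCH-active leukemias, as in 6.53% of the genes tested, and ran from 0.11 in JW81 and 0.40 in 78A to 1.07 in 73A and 1.09 in 2M. The DEX libraries of 2M and 73A held 221% and 219% of the *Mxd4* FPKM of their VEH libraries, while that of JW81 held 108%. In the NOTCH-silent leukemias the change was −0.02 in 5C, −0.03 in 8633 and −0.18 in JW14. The groups did not overlap, with means of 0.68 ± 0.40 (SD, n = 6) and −0.075 ± 0.092 (SD, n = 3), but the gap between JW81 and 5C was small beside the range of the 6. With TMM factors the changes of 5C and 8633 were 0.03 each, above zero instead of below it, while JW14 was at −0.22 and JW81 at 0.23, and the groups again did not overlap. The sign in 5C and 8633 thus depends on the scaling. A change higher in all 6 and lower in all 3 was seen in 39 genes (0.344%), and 97.5% of the genes tested had a lower mean change over the 6 than *Mxd4*. *Gm42846*, on the opposite strand, covers 6.06% of the exon bases of *Mxd4*, and the TruSeq RNA kit does not mark strand, so reads from the 2 cannot be told apart there.

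**Figure D2:**
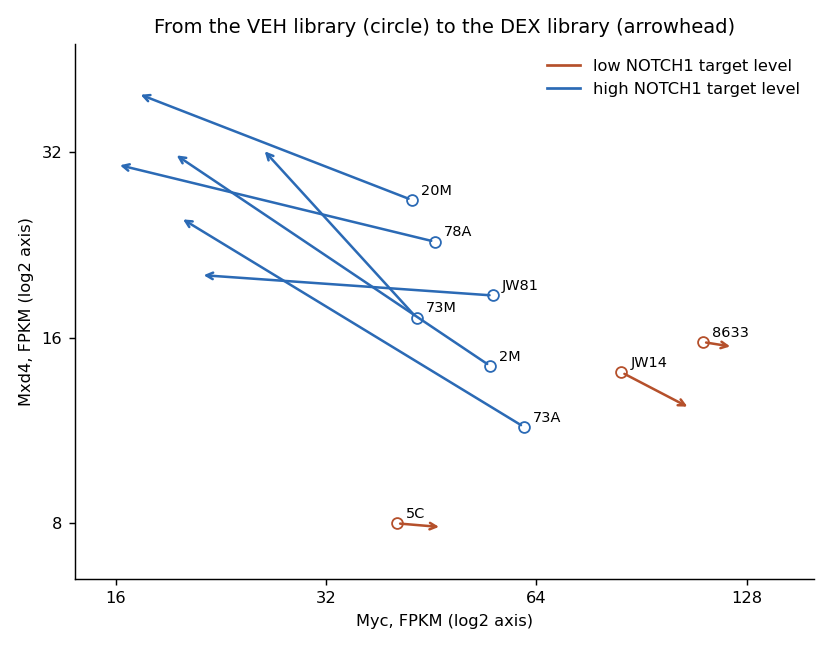
*Mxd4* against *Myc* in 9 leukemias (FPKM, both axes on a log2 scale), with each arrow running from the VEH library (circle) to the DEX library (arrowhead). The 6 NOTCH-active arrows (blue) run to the left and upward, nearly flat in JW81, and the 3 NOTCH-silent arrows (orange) run to the right.

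The ratio of both genes follows from these values. *Myc* stood at 1.59 (20M) to 5.36 (73A) times the FPKM of *Mxd4* in VEH libraries of the NOTCH-active leukemias and at 0.431 (20M) to 1.04 (JW81) times in their DEX libraries. In the NOTCH-silent leukemias the ratio was 5.05 in the VEH and 5.96 in the DEX library of 5C, 7.02 and 7.93 in 8633, and 6.02 and 8.65 in JW14. Expressed as a share of the summed FPKM of *Myc* and its 6 tested antagonists (*Mxd1*, *Mxd3*, *Mxd4*, *Mxi1*, *Mnt* and *Mga*), *Myc* went from 37.3% to 17.1% in 20M, from 50.1% to 21.7% in 2M and from 54.5% to 23.4% in 73A. It went from 41.9% to 28.6% in 73M, from 42.9% to 19.4% in 78A and from 47.6% to 28.3% in JW81. In 5C it went from 45.6% to 51.6%, in 8633 from 68.0% to 72.1% and in JW14 from 62.01% to 69.9%. The shares of the groups overlapped in VEH libraries through 5C and were apart in DEX libraries. These are ratios of RNA, and the proteins were not measured.

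*Mnt* (ENSMUSG00000000282, chr11:74830920-74845725, plus strand), a MAX-bound repressor that most cells express throughout the cell cycle, was low in all libraries. It went from 2.52 to 2.39 FPKM in 5C, from 2.88 to 3.06 in 8633 and from 1.81 to 2.36 in JW14. In the NOTCH-active leukemias it lay between 1.97 and 3.25 FPKM in VEH libraries (median 3.04) and between 1.26 and 2.35 in DEX libraries (median 1.79). Its DEX libraries were again apart, although JW14 (2.364 FPKM) and 73A (2.352 FPKM) were nearly equal. The changes of the 6 ran from −0.71 (2M) to −0.11 (JW81) and those of the 3 from −0.05 (5C) to 0.26 (JW14). JW81 and 5C were neighbours, and with TMM factors their changes were nearly equal, at −0.023 and −0.018. The smallest *Mnt* count was 90, in the DEX library of JW14, the shallowest of the 18.

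Of the 8 tested members, *Myc*, *Mnt* and *Mxd4* thus had changes that did not overlap between the 3 and the 6 leukemias, against 6.27% of all genes tested (4.18% with the 3 above and 2.09% with the 3 below). Since the network was chosen with these changes known, that share is given as background only.

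**Figure D3:**
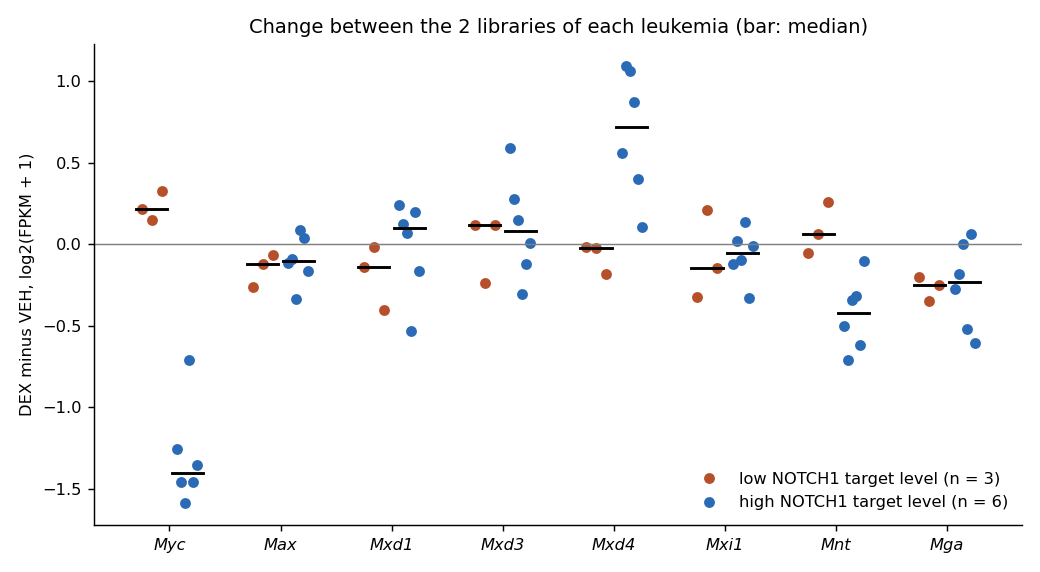
Change from the VEH to the DEX library of each leukemia, in log2(FPKM + 1), for the 8 tested members. Each point is a leukemia (orange, 3 NOTCH-silent; blue, 6 NOTCH-active), and the bar is the group's median. The points of *Myc*, *Mxd4* and *Mnt* do not overlap between the groups, and those of the other 5 genes do.

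*Max* (ENSMUSG00000059436, chr12:76937269-76962201, minus strand), the partner shared by all other members, varied little. It lay between 12.7 and 21.0 FPKM over the 18 libraries. In VEH libraries it was at 21.0 FPKM in 5C, 19.4 in 8633 and 20.5 in JW14, against 14.3 to 18.5 in the 6 NOTCH-active leukemias (median 14.9). In DEX libraries it was at 17.4, 17.7 and 19.5 FPKM, against 12.7 to 16.6 (median 14.2). The NOTCH-silent leukemias were above the others in both kinds of library, by 0.37 and 0.32 on the log2(FPKM + 1) scale. *Myc* stood at 2.83 to 3.88 times the FPKM of *Max* in the VEH and 0.966 to 1.67 times in the DEX libraries of the NOTCH-active leukemias. In the NOTCH-silent ones the ratio was 1.92 and 2.70 in 5C, 5.71 and 6.93 in 8633, and 4.14 and 5.47 in JW14.

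Averaged over both libraries, the levels of *Myc* and *Max* were above and that of *Mxd4* below in the NOTCH-silent leukemias without overlap (3 of 8 members, against 31.8% of all genes tested). The differences of the means were 1.29, 0.34 and −0.90 on the log2(FPKM + 1) scale. In VEH libraries alone only *Max* was apart (1 of 8, against 28.3%), and the differences of *Myc* and *Mxd4* were 0.52 and −0.53. In DEX libraries alone *Myc*, *Max* and *Mnt* were above and *Mxd1* and *Mxd4* below (5 of 8, against 29.2%). The share for both libraries together stands near its background, and that for VEH libraries below it.

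In order of the mean *Myc* level, 8633 was first (6.88), followed by JW14 (6.58), 5C (5.48), 73A (5.17), JW81 (5.14), 73M (5.11), 2M (5.08), 78A (4.82) and 20M (4.81). The 6 NOTCH-active leukemias lay between 4.81 and 5.17 (SD 0.16, n = 6), and with 1 library of each kind their order could not be set against a spread. For *Mxd4* the order ran from 20M (5.08), 78A (4.78) and 73M (4.63) down to 8633 (4.05), JW14 (3.82) and 5C (3.16). The leukemia with the lowest *Mxd4*, 5C, was the one with the lowest *Myc* of the 3 NOTCH-silent leukemias.

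The MXD genes other than *Mxd4* did not separate the groups by their changes. *Mxd1* (chr6:86647042-86669161, minus strand), which rises as myeloid and lymphoid cells differentiate, was at 1.76 and 1.51 FPKM in the VEH and DEX library of 5C, 2.42 and 2.39 in 8633, and 2.14 and 1.38 in JW14. In the NOTCH-active leukemias it lay between 2.06 and 4.31 FPKM (median 3.002) in VEH and between 2.52 and 4.46 (median 2.78) in DEX libraries. Its lowest change was in 73M, from 4.31 to 2.66 FPKM. Marrow neutrophils also carry *Mxd1* RNA, and a list of 10 neutrophil genes (*S100a8*, *S100a9*, *Ngp* and others) was read beside it. The level of that list was highest in 73A (6.64), which also had the highest *Mxd1*, and lowest in JW14 (1.38). Its summed FPKM was 21.3 to 1215 in NOTCH-silent and 765 to 4528 in NOTCH-active libraries. In 73M the sum went from 2287 in the VEH to 855 in the DEX library, beside the lowest change of *Mxd1*, and in 73A it went from 4528 to 2655 while *Mxd1* went from 4.19 to 4.46 FPKM. *Elane* was the only gene of the list at 0 in any library, and the part of these cells in *Mxd1* was not tested. In bulk marrow fewer cells of a type and less RNA per cell cannot be told apart.

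*Mxd3* (chr13:55325168-55329823, minus strand), the member whose RNA is highest in S phase, was at 7.99 and 8.74 FPKM in the VEH and DEX library of 5C, 5.05 and 4.13 in 8633, and 3.95 and 4.36 in JW14. In the NOTCH-active leukemias it lay between 6.75 and 11.4 FPKM (median 7.59) in VEH and between 6.04 and 12.4 (median 8.49) in DEX libraries. Its changes were of both signs in both groups, from −0.31 in 73M to 0.59 in 20M. *Prelid1*, on the opposite strand, shares 105 bases (4.43%) of its exons. *Mxi1* (chr19:53310518-53375810, plus strand), also called Mxd2, lay between 3.36 (73A) and 8.86 FPKM (JW14), and was higher in the VEH than in the DEX library of 6 of 9 leukemias. *Gm10197* on the opposite strand shares 2.84% of its exon bases.

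*Mga* (ENSMUSG00000033943, chr2:119897228-119969581, plus strand), the largest of the members, is a T-box factor that pairs with MAX inside a Polycomb complex with E2F6, PCGF6 and L3MBTL2. It was at 21.5 and 18.6 FPKM in the VEH and DEX library of 5C, 20.0 and 15.5 in 8633, and 21.0 and 17.5 in JW14. In the NOTCH-active leukemias it lay between 16.9 and 25.6 FPKM (median 22.3) in VEH and between 14.8 and 21.9 (median 18.8) in DEX libraries. It was lower in the DEX library of 7 of 9 leukemias, from −0.18 in 2M to −0.61 in JW81, and stood at 0.00 in 73A and 0.07 in 78A. Its mean changes were −0.25 in the 6 and −0.27 in the 3 leukemias.

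*Mycn* (chr12:12936093-12941914, minus strand), the MYC gene of early lymphoid and neural progenitors, and *Mycl* (chr4:122995652-123002485, plus strand), that of dendritic and some epithelial cells, were close to the limit of detection. *Mycn* had at most 16 counts in a library and 3 or fewer in 11 of 18, and *Mycl* at most 45 and 3 or fewer in 8 of 18. A floor of 3 counts corresponded to 0.0045 to 0.111 FPKM for *Mycn* and 0.0037 to 0.0903 for *Mycl*, depending on the depth of the library. *Mycn* was at 0 counts in both libraries of 5C and of JW14 and in the VEH library of 8633, and at 1 count in the DEX library of 8633. It had 1 to 16 counts in the NOTCH-active libraries, with its highest level, 0.189 FPKM, in the VEH library of JW81. At these counts no change could be read.

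DEX were compared with VEH libraries over all 9 leukemias with the edgeR quasi-likelihood test (leukemia as a block, Benjamini-Hochberg adjustment over 11339 genes). Of all genes tested, 1475 passed an adjusted p of 0.05 (13.0%), with 705 higher (6.22%) and 770 lower (6.79%) in DEX libraries. Of the 8 tested members, *Myc* was lower (1 of 8) and *Mxd4* higher (1 of 8), both just inside the threshold, and *Mga* lay just outside it. *Myc* had a log2 change of −0.77 (SE 0.23, edgeR adjusted p = 0.0478) and was lower in 6 of 9 leukemias. *Mxd4* had a log2 change of 0.50 (SE 0.15, edgeR adjusted p = 0.0479) and was higher in 6 of 9. *Mga* had −0.22 (SE 0.068, edgeR adjusted p = 0.0502), with 7 of 9 lower. The network was chosen with the changes of these libraries known, so the p-values are no independent support.

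Both calls were lost without any one of the 6 NOTCH-active leukemias, while the log2 changes stayed of about the same size. *Myc* then had log2 changes of −0.79 to −0.68 with edgeR adjusted p of 0.0810 (without 73M) to 0.110 (without 20M). *Mxd4* had log2 changes of 0.41 to 0.54 with edgeR adjusted p of 0.0678 (without JW81) to 0.108 (without 73A). In 5 libraries nuclear ribosomal RNA genes had 21.6 to 64.05 counts per M, against 0.00497 or less in the other 13. They were the DEX libraries of JW14, JW81, 20M and 73M and, on the VEH side, that of 5C. With this feature as a term in the model the log2 changes were −0.70 for *Myc* and 0.49 for *Mxd4*, close to those without it, with edgeR adjusted p of 0.146 and 0.125. In the 4 leukemias with neither library affected (8633, 78A, 73A and 2M), the log2 changes were −1.09 for *Myc* and 0.71 for *Mxd4*, with edgeR adjusted p of 0.0745 and 0.0786. Among these 4, where 8633 alone stands against 3 NOTCH-active leukemias, the changes of 7 of the 8 tested members did not overlap, against 58.1% of all genes tested. DESeq2 gave adjusted p of 0.0227 for *Myc*, 0.0061 for *Mxd4* and 0.0142 for *Mga*.

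The other members did not pass. *Mnt* had a log2 change of −0.34 (SE 0.14, edgeR adjusted p = 0.130) and *Max* one of −0.071 (SE 0.054, edgeR adjusted p = 0.378). *Mxd1* was at −0.041 (SE 0.11), *Mxd3* at 0.12 (SE 0.095) and *Mxi1* at −0.038 (SE 0.077), with edgeR adjusted p of 0.829, 0.398 and 0.766.

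All 3 tested genes of the 5 in the MLX branch of the network passed, against 13.0% of all genes tested. *Txnip*, which encodes an inhibitor of glucose uptake and thioredoxin, rose in 9 of 9 leukemias with a log2 change of 1.48 (SE 0.11, edgeR adjusted p = 0.0002). Its DEX libraries lay at 65.4 to 143.2 FPKM in the NOTCH-silent and 158 to 316 in the NOTCH-active leukemias, above VEH libraries at 29.5 to 48.4 and 66.0 to 105, respectively. *Mlxip* rose in 9 of 9 with a log2 change of 0.95 (SE 0.14, edgeR adjusted p = 0.0027), by 0.87 to 1.33 on the log2(FPKM + 1) scale in the NOTCH-active and 0.03 to 0.58 in the NOTCH-silent leukemias. *Mlx* fell in 9 of 9, with a log2 change of −0.36 (SE 0.065, edgeR adjusted p = 0.0072). *Mlxipl* and *Arrdc4* were below 1 FPKM.

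None of 12 MYC cofactors passed (*Trrap*, *Kat5*, *Wdr5* and others), and their median log2 change was −0.034, against 0.0039 for all genes tested. Of 10 genes for MYC turnover only *Skp2*, a ubiquitin ligase subunit, passed, at −0.36 (edgeR adjusted p = 0.0437). *Fbxw7*, the ligase subunit that is recurrently mutated in human T-ALL, was at −0.035. Of 8 SIN3 and NCOR corepressor genes only *Sap30*, a SIN3 subunit, passed, at −0.38 (edgeR adjusted p = 0.0458). Of 8 genes of the MGA complex only *E2f6* passed, at −0.28 (edgeR adjusted p = 0.0225), and it was lower in 9 of 9. The counts of the last 3 lists lie near the 13.0% called among all genes tested.

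Of 12 MYC targets of the nucleolus and RNA polymerase I, 4 were lower and none higher, against 6.79% lower among all genes tested. *Gnl3*, which encodes the nucleolar GTPase nucleostemin, had a log2 change of −0.63 (SE 0.15, edgeR adjusted p = 0.0199), and *Polr1b*, a subunit of RNA polymerase I, one of −0.49 (SE 0.11, edgeR adjusted p = 0.0155). The other two, named after their values were seen, were *Nop56* (−0.34) and *Dkc1* (−0.35), both parts of small nucleolar ribonucleoproteins. *Ncl* and *Fbl*, at −0.020 and 0.016, did not pass. The median change of the list was lowest in 20M (−0.71) and 73A (−0.70), followed by 2M (−0.49), 78A (−0.39), 73M (−0.22) and JW81 (−0.19). It was near zero in 5C (−0.02), 8633 (0.02) and JW14 (0.01). The median over all genes tested was between −0.094 and 0.015 in these leukemias. The mean level of the list was 5.48 to 5.95 in NOTCH-silent and 4.37 to 4.92 in NOTCH-active leukemias. The 2 groups did not overlap in either value, and JW81 and 73M had the smallest changes of the 6.

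Of 16 MYC targets of metabolism and growth, 3 were lower and none higher, against 6.79% lower and 6.22% higher among all genes tested. They were *Ppat*, the first enzyme of purine synthesis, at −0.53 (SE 0.099, edgeR adjusted p = 0.0076), *Hspd1*, a mitochondrial chaperonin, at −0.48 (SE 0.11, edgeR adjusted p = 0.0176), and *Eif4a1*, a translation initiation helicase named after its value was seen, at −0.31. *Odc1* and *Cad*, at −0.014 and 0.15, did not pass. The list's median change ran from −0.51 (20M), −0.50 (73A) and −0.47 (73M) over −0.36 (2M) and −0.18 (78A) to −0.15 (JW81). The NOTCH-silent leukemias stood at 0.04 (5C), −0.07 (8633) and −0.03 (JW14).

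Of 10 proliferation genes, 2 were higher and none lower over the 9 leukemias, against 6.22% higher among all genes tested. They were *Aurkb* (log2 change 0.32, edgeR adjusted p = 0.0063) and *Ccnb1* (0.26, edgeR adjusted p = 0.0311), both of mitosis. The replication genes *Mcm2*, *Mcm5* and *Pcna* did not pass, and their mean changes over the 6 NOTCH-active leukemias were −0.35, −0.24 and −0.28. Over the 3 NOTCH-silent leukemias their means were 0.12, 0.16 and −0.00065. *Mcm2*, *Mcm5* and *Pcna* were named after their values were seen. For *Mcm2* and *Mcm5* all 6 were lower and all 3 higher, as for 0.6% of all genes tested, and this was not tested. The median change of the list was 0.18 to 0.24 in 4 NOTCH-active leukemias (2M, 73A, 78A and 20M), −0.34 for 73M and −0.13 for JW81. It was 0.04 to 0.16 in the NOTCH-silent leukemias.

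**Figure D4:**
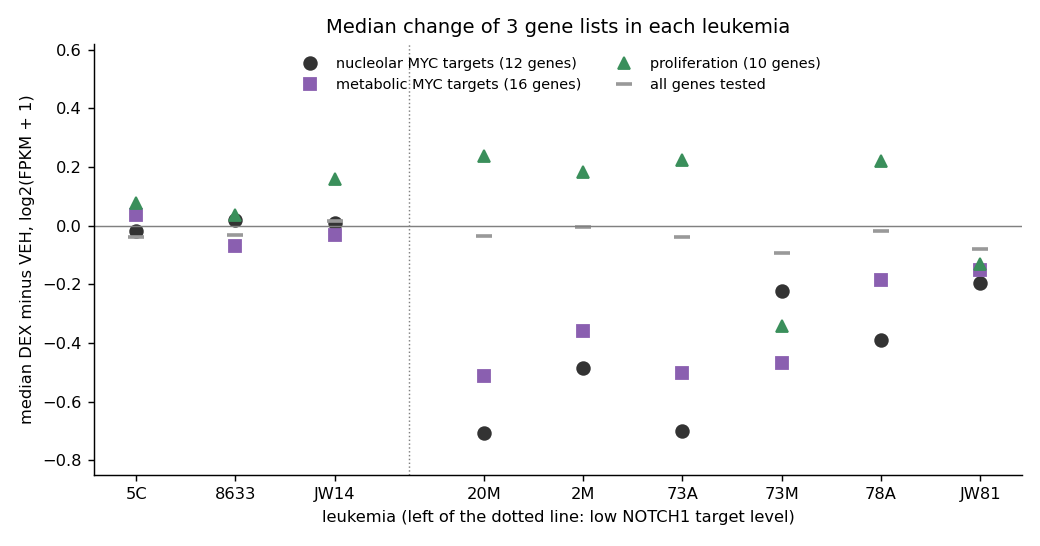
Median change from the VEH to the DEX library, in log2(FPKM + 1), of 12 nucleolar MYC targets (circles), 16 metabolic MYC targets (squares) and 10 proliferation genes (triangles) in 9 leukemias, with the median of all genes tested as dashes. Both MYC target lists lie at −0.15 or below in the 6 NOTCH-active leukemias at the right and between −0.07 and 0.04 in the 3 NOTCH-silent ones at the left.

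Other lists were read beside these. Of 6 tested glucocorticoid-induced genes, 4 were higher in DEX libraries, against 6.22% of all genes tested, with *Zbtb16* at 1.61 (edgeR adjusted p = 0.0218) and *Klf9* at 1.47 (edgeR adjusted p = 0.0027), both higher in 9 of 9 leukemias. Of 8 NOTCH1 targets *Il2ra* was lower (−0.96, edgeR adjusted p = 0.0115). Of 12 T lineage genes *Cd5* was lower (−0.62, edgeR adjusted p = 0.0108), and the summed FPKM of that list was 525 to 671 in NOTCH-silent and 710 to 1315 in NOTCH-active libraries. With 1 gene lower in each, the NOTCH1 target and T lineage lists lie near the 6.79% lower among all genes tested. None of the tested neutrophil (10), erythroid (6), macrophage (7) and B lineage (1) genes passed. In 73M, the NOTCH-active leukemia with the smallest *Myc* change, the median changes of the neutrophil and erythroid lists were −1.22 and −2.80, and in 78A, where *Myc* changed by −1.46, they were 0.43 and 0.10. In JW81 they were −1.29 and 0.68 beside a *Myc* change of −1.35, and in 73A −0.69 and −1.43 beside the largest *Myc* change of the 6, −1.59. In 73M the summed FPKM of the B lineage list also went from 29.8 in the VEH to 5.57 in the DEX library. The part of these cells in the *Myc* change was not tested. The VEH and DEX libraries of 73M also differed in depth, at 201222288 and 16134301 counts.

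*Pvt1*, the long noncoding RNA gene next to *Myc* on chromosome 15, was at 3.87 FPKM in 5C, 7.88 in 8633 and 6.10 in JW14 (means of both libraries), and at 0.804 to 2.77 in the NOTCH-active leukemias. Its log2 change over 9 leukemias was −0.25 (SE 0.15, edgeR adjusted p = 0.277). The level of *Myc* relative to the mean of the 9 leukemias was 1.42 in 8633 and 1.13 in JW14, where the median of 418 genes of chromosome 15 was at 0.21 and 0.22. In 78A that median was 0.24 while *Myc* was at −0.63, and in 5C it was −0.21 with *Myc* at 0.03. The median was 0.16 in 2M and 0.08 in 73M, with *Myc* at −0.37 and −0.34. In 20M, 73A and JW81 it was −0.24, −0.17 and −0.27, with *Myc* at −0.64, −0.28 and −0.31. These *Myc* levels average both libraries and so include the change from VEH to DEX. The number of copies was not measured here, and its part in the *Myc* level was not tested.

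The genes whose levels ran most alike with *Myc* over the 18 libraries were *Alkbh1* (Pearson r = 0.931), *Chchd4* (0.928) and *Dkc1* (0.927). For *Mxd4* they were *Kdm4a* (0.913), *Mcl1* (0.907) and *Bmf* (0.907), and for *Mxd1* *Fundc1* (0.917), *Acadsb* (0.894) and *Smcr8* (0.883). These r are descriptions, since the 2 libraries of a leukemia share their cells and the leukemias fall into 2 groups by NOTCH1 target level.

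A further leukemia, 4638, was not among the 9 compared and was added only as an alternative. It was left out by plan, since it was not found in the study's overview of its leukemias. Its NOTCH1 target level was 0.91, on the side of the NOTCH-silent leukemias. *Myc* went from 58.3 to 68.5 FPKM (change 0.23), *Mxd4* from 28.0 to 23.9 (−0.21) and *Mnt* from 5.87 to 6.14. *Mxd1* was at 13.7 and 15.8 FPKM, above every library of the other 9, and its neutrophil list level (7.998) was also above all of them. Its mean *Mxd4* level, 4.75, lay among the NOTCH-active leukemias. With 4638 added to the NOTCH-silent group, the *Mxd4* levels of the groups overlapped (difference of means −0.64), while those of *Myc* and *Max* did not. With it in the test, *Myc* was at −0.67 (edgeR adjusted p = 0.0699) and *Mxd4* at 0.43 (edgeR adjusted p = 0.0751), so that neither passed. Its T lineage list level was 3.54, against 4.37 to 5.77 in the 9.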

How the data were processed

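Bone marrow RNA was poly(A)-selected and made into TruSeq RNA libraries for paired-end sequencing. Reads were mapped by the authors to mm10 (Bowtie 2), and RSEM gave the deposited expected counts, in a table named for FPKM. RSEM's version and the annotation are not given in the sources used here. Totals were 8226528 to 201222288 counts (median 24451898.5). A leukemia's VEH and DEX libraries share their origin, so leukemia was a block (paired design). Columns were matched to leukemias by name, and the DEX columns of 73A, 2M and 4638 end differently from every title. Exon lengths (GENCODE M21, GRCm38) were found for 37693 of 39017 genes. Changes are differences of log2(FPKM + 1), which understate the change of low genes. Rounded expected counts of 11339 genes averaging 1 FPKM or more were tested with edgeR 4.0.16 in R 4.3.3 (TMM, quasi-likelihood, Benjamini-Hochberg, adjusted p of 0.05). Both tools were tested on simulated counts for this comparison, where DESeq2 made more false calls than edgeR, at a share above the threshold of 0.05. Python 3.11.15, numpy 2.4.6 and pandas 2.3.3 gave all other values. Floors of 3 counts cover counting error only.

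The members and lists were chosen with earlier results of these data known. All 10 members are named, with the 2 largest rises and falls past the threshold per list, the 3 genes most like *Myc*, *Mxd1* and *Mxd4*, and *Pvt1*. Other genes named in the text fall outside this rule. Among them, *Nop56*, *Dkc1*, *Eif4a1*, *Ncl*, *Fbl*, *Odc1*, *Cad*, *Fbxw7*, *Mcm2*, *Mcm5* and *Pcna* were named after their values were seen. Alternatives were DESeq2 1.42.0, RLE or TMM factors, no filter, no block, a pseudocount of 0.1, thinned libraries, 4638 added, each leukemia left out, VEH or DEX libraries alone, a term for libraries with nuclear ribosomal RNA above 1 count per M, and the 4 leukemias without one. A feature in which the leukemias of the 2 groups also differ is not reported here.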

Additional observations from a re-analysis of the deposited data

Results flagged for a closer look

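The change of *Myc* from VEH to DEX libraries pointed one way in all 6 NOTCH-active leukemias and the other way in all 3 NOTCH-silent ones, and the mean difference was 1.53 on the log2(FPKM + 1) scale. For *Mxd4* the directions were the reverse, with a mean difference of −0.76 (NOTCH-silent minus NOTCH-active). With TMM factors *Myc* kept its directions in all 9 leukemias, while *Mxd4* was at 0.03 in both 5C and 8633, above zero. Neither difference was tested, since the leukemias were divided by measured values of the same libraries. No leukemia stood apart from the other 8 in the level or the change of a tested member (16 sets, Dixon's critical value 0.493), but that range includes the difference between the groups. Among the 6 NOTCH-active leukemias alone none passed either (16 sets, critical value 0.625), with the *Myc* change of 73M, at −0.71, just under it (gap over range 0.623).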

How the results depend on the processing

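The comparison of DEX with VEH libraries called 1475 genes, 1485 with RLE size factors, 2169 with DESeq2, 1803 of 28697 without a filter, 1442 with 4638 added and 1184 with thinned libraries. It called 465 with the ribosomal RNA libraries as a term and 475 in the 4 leukemias without such a library. Leaving out 1 leukemia gave 676 to 2041 genes: 676 without 20M, 739 without 2M, 766 without 73A, 847 without 73M, 966 without JW81 and 2041 without 5C. The pathway lists held 20 called genes, and 12 and 11 under the ribosomal RNA settings, with 13 (without 73A) to 28 when 1 leukemia was left out. Without the pairing of the 2 libraries of a leukemia (no replicate block), 8 genes were called over all genes and 0 in the lists. *Myc* was then at −0.40 (edgeR adjusted p = 0.9999) and *Mxd4* at 0.57 (edgeR adjusted p = 0.813). Over all 17 alternatives *Myc*, *Mxd4* and *Mga* each passed in 6, with edgeR or DESeq2 adjusted p of 0.00162 to 0.9999, 0.00615 to 0.813 and 0.0142 to 0.666. *Mxd1*, called in none, changed sign, ranging from −0.10 (without 20M) to 0.032 (without 73M) when 1 leukemia was left out, with 0.028 without JW14, 0.017 with the ribosomal RNA term and 0.17 in the 4 leukemias. The causes were not tested. Members whose levels did not overlap numbered 3 with both libraries, 1 with VEH and 5 with DEX libraries alone, 3 to 4 when 1 leukemia was left out, and 2 with 4638 added, where *Mxd4* overlapped. Members whose changes did not overlap numbered 3, also with 4638 added and without each leukemia in turn, and 7 of 8 in the 4 leukemias, where 1 leukemia stands against 3 and 58.1% of all genes tested did not overlap either. Depth limits *Mycn* and *Mycl*, and 1 library of each kind per leukemia leaves no spread within a leukemia.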
